A study of Mus musculus with 48 samples.

Results

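The 9 genes described here encode stress and opioid neuropeptides or the proteins that bind them: Crh, Crhbp, Crhr1, Penk, Pdyn, Tac1, Adcyap1, Nts and Cort. They were chosen by name, and each array probe annotated with 1 of these names was taken, which gave 9 of 35080 probe names and 11 of the 55681 probes on the array (Crhr1 and Pdyn had 2 probes each). All 11 probes were well above background on all 24 arrays of the medial prefrontal cortex (mPFC) and were among the 28353 probes detected in this tissue. The question was whether ovary removal, mild stress or their combination altered the level of these transcripts in the mPFC.

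The animals were female C57BL/6J mice, 17 weeks old, and every mouse had surgery. Control mice had a sham operation and no stress, CUMS mice had a sham operation and chronic ultra-mild stress (mild disturbances such as tilted or small cages repeated over weeks), OVX mice had ovariectomy and no stress, and OVX+CUMS mice had ovariectomy and the stress. There were 6 mice in each of the 4 groups, each measured on 1 mPFC array, and 24 blood arrays of the same 4 groups were also available. The labels do not say whether a blood and an mPFC array of the same number come from the same mouse. Ovariectomy serves as a model of menopause in young adult animals, and pentobarbital was given to all mice shortly before decapitation.

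Neuropeptides are cut from larger precursors, stored in dense core vesicles and released onto G protein-coupled receptors, where they act more slowly than fast transmitters. In the cortex most of these precursors are made by subsets of GABAergic interneurons, and the mRNA level of the precursor is commonly used as a readout of peptide production. Corticotropin-releasing hormone starts the hormonal stress response from the hypothalamus and also acts locally in the cortex, whereas enkephalins and dynorphins are the endogenous ligands of the opioid receptors.

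The probe sequences show which part of each transcript the signal reports. The dim Pdyn probe, A_66_P123898 (mm9, chr2:129513968-129514027, minus strand), lies in the coding sequence, and the capitals mark the codons of the Leu-enkephalin core with which the first opioid peptides of prodynorphin begin. The bright Pdyn probe, A_52_P586928 (mm9, chr2:129512323-129512382, minus strand), starts at base 2304 of its transcript record, and its last 30 bases are given. The dim probe starts at base 456 of a different transcript record, so these positions are not on a common count. The Nts probe (mm9, chr10:101944967-101945026, minus strand) covers the neurotensin peptide itself, and the capitals mark its codons after the first residue. The last 30 bases of the probes for Tac1 (mm9, chr6:7512893-7512952, plus strand), Cort (mm9, chr4:148499300-148499359, minus strand) and Penk (mm9, chr4:4060724-4060783, minus strand) are shown because results below turn on them, with the polyadenylation signal in capitals where it occurs.
Pdyn, A_66_P123898: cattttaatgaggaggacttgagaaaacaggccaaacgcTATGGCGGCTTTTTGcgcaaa
Pdyn, A_52_P586928: tctgtgtagtttcctgcttctctggtataa
Nts, A_51_P485756: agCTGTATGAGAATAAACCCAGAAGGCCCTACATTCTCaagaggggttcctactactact
Tac1, A_55_P1954693: ttgtatgatgtgttgtgatagctaccattt
Cort, A_55_P2167323: acgagacctgAATAAAgactgtcaatcagc
Penk, A_55_P2035946: atctctcctgacgaaacatcAATAAAtgct

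All values below are log2 processed signals minus the 75th percentile of the same array, so a value of 0 is the level of the probe at that percentile, and levels of different probes cannot be ranked. The 75th percentile of the mPFC arrays ranged from 572 to 689 signal units, and no probe was saturated. The 24 arrays lay on 3 slides: slide 1 held the 6 control and 2 of the CUMS mice, slide 2 held 4 CUMS and 4 OVX mice, and slide 3 held 2 OVX and the 6 OVX+CUMS mice. Control and OVX+CUMS mice shared no slide and cannot be compared within one. A fit with slide as a block separates their difference from that between slides 1 and 3 only through the CUMS and OVX mice, which link the slides. Within-slide values are given beside the calls. In dissected tissue, fewer cells of a type and less RNA per cell cannot be told apart either.

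The 4 groups overlapped for all 11 probes, and few probes passed the test. In the factorial fit (limma, Benjamini-Hochberg adjustment over the detected probes, two-sided), the OVX effect is the mean difference between ovariectomised and sham mice over both stress states, and the CUMS effect is the mean difference between stressed and unstressed mice over both surgeries. The OVX effect passed an adjusted p of 0.05 for 1 of 11 member probes, which was lower, against 30.9% of all detected probes in either direction and 11.7% lower. The CUMS effect passed for 1 of 11, which was lower, against 4.2% of all detected probes in either direction and 1.87% lower. The interaction, which is the CUMS difference in OVX mice less that in sham mice, passed for 0 of 11 in limma, against 4.47% of all detected probes, and 0 member probes had an unadjusted p under 0.05 where 23.4% of all detected probes did. The direct comparison of OVX+CUMS with control mice passed for 1 of 11, which was lower, against 33.4% of all detected probes in either direction and 13% lower. At an unadjusted p under 0.05 the counts were 2 of 11 for OVX, 5 of 11 for CUMS and 1 of 11 for OVX+CUMS against control, where the corresponding shares of all detected probes were 41.1%, 23.2% and 43.6%. The median change of the 11 probes was -0.01 for OVX, -0.07 for CUMS and -0.11 for OVX+CUMS against control, beside 0.04, 0.01 and 0.06 over all detected probes. All changes are relative to the array's 75th percentile. Centred on the E1A spike-in RNA instead, the median over all detected probes became -0.07 for OVX, -0.12 for CUMS and -0.19 for OVX+CUMS against control, the calls turned mostly to lower (178 higher and 5038 lower for OVX beside 5423 and 3327, and 53 higher and 5988 lower for CUMS beside 662 and 529), and 7 member probes were called lower in OVX+CUMS against control mice (Tac1, Cort, Crh, Crhbp, Penk and both Pdyn probes).

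**Figure D1:**
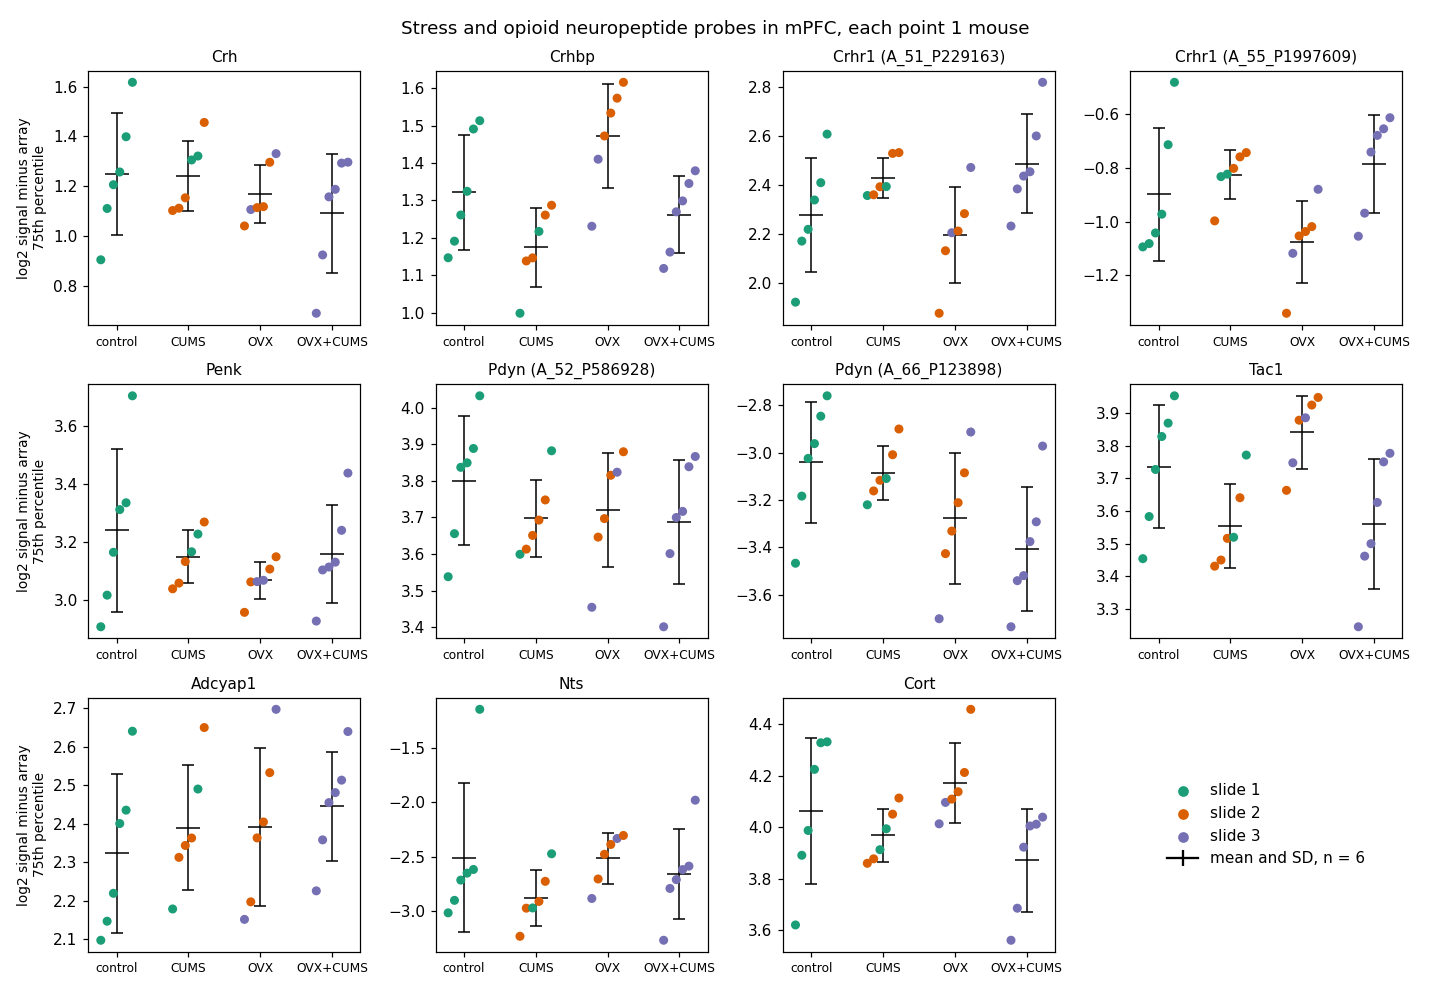
Log2 processed signal minus the array's 75th percentile (vertical axis, a separate scale for each probe) for the 11 member probes in the 4 mPFC groups; each point is 1 mouse coloured by slide, and bars give the mean and SD (n = 6). The groups overlap in every panel, Tac1 sits lower in both stressed groups, and 1 control mouse stands apart in Nts at -1.15.

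Tac1, the precursor gene of substance P and neurokinin A, fell with CUMS. The lowest, median and highest normalised log2 values were 3.45, 3.78 and 3.95 in the control group, while the CUMS group had 3.43, 3.52 and 3.77. After ovariectomy they were 3.66, 3.88 and 3.95 without stress, and 3.25, 3.56 and 3.78 with it. Stressed mice were thus lower in both surgery states with overlap between the groups: 2 of 6 CUMS mice lay below every control mouse, and 4 of 6 OVX+CUMS mice lay below every OVX mouse. The CUMS effect on Tac1 was -0.23 ± 0.06 (SE, n = 24; 1.17-fold) with an adjusted p of 0.0454 in limma. The difference was -0.18 ± 0.09 (SE) between CUMS and control mice and -0.28 ± 0.09 (SE) between OVX+CUMS and OVX mice, and the interaction was -0.10 ± 0.13 (SE) with an adjusted p of 0.673. Within slide 1 the CUMS mice differed from the control mice by -0.09 for Tac1 (2 against 6, exact permutation p = 0.571), and within slide 3 the OVX+CUMS mice differed from the OVX mice by -0.26 (6 against 2, exact permutation p = 0.179), where the smallest p these numbers allow is 0.0357. On slide 2 the 4 OVX mice and the 4 CUMS mice did not overlap for Tac1 (difference 0.34, exact permutation p = 0.0286, the smallest p that 4 against 4 allows). The call was close to the threshold: it was lost with slide as a block (-0.17, adjusted p = 0.735), without moderation of the variances (adjusted p = 0.0522) and without the detection filter (adjusted p = 0.125). It was also lost when any 1 of 16 arrays was left out (control replicates 2, 3, 4 and 6, CUMS replicates 3, 4, 5 and 6, OVX replicates 1, 3, 4 and 5, and OVX+CUMS replicates 3, 4, 5 and 6), with an adjusted p of at most 0.0837 and a change between -0.26 and -0.20.

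No gene of the CRH system passed the test for CUMS with all 24 arrays, although Crhbp and Crhr1 did under some settings. Crhbp, which encodes a secreted protein that binds and sequesters CRH, had a CUMS effect of -0.18 ± 0.05 (SE) with an adjusted p of 0.0509. Sham mice had a lowest, median and highest value of 1.15, 1.29 and 1.51 without stress (control), and of 1.00, 1.18 and 1.29 with it (CUMS). Ovariectomised mice had 1.23, 1.50 and 1.62 without stress (OVX), and 1.12, 1.28 and 1.38 with it (OVX+CUMS). The OVX mice held the highest values, with 3 of 6 above every control mouse, and 3 of 6 CUMS mice lay below every control mouse. Crhbp passed the threshold with normexp background correction (adjusted p = 0.0306), quantile normalisation (0.0356), the 75th percentile taken over the detected probes (0.0305) and spike-in centring (0.0095), and without any 1 of 5 arrays (control replicates 1 and 5, CUMS replicates 1 and 2, and OVX replicate 5). With slide as a block the CUMS effect on Crhbp was -0.14 with an adjusted p of 0.684, and within slides it was -0.21 on slide 1 (CUMS minus control, exact permutation p = 0.143) and -0.06 on slide 3 (OVX+CUMS minus OVX, exact permutation p = 0.607). The OVX effect of 0.12 ± 0.05 (SE) had an adjusted p of 0.084, and it passed without control replicate 4 (0.0433) or OVX replicate 5 (0.0298).

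Crhr1 encodes the main CRH receptor of the cortex and was measured by 2 probes that start at bases 2286 and 1777 of the same transcript. The CUMS effect was 0.22 ± 0.07 (SE, adjusted p = 0.0804) for the first probe, A_51_P229163, and 0.18 ± 0.07 (SE, adjusted p = 0.126) for the second, A_55_P1997609. For the first probe the lowest, median and highest values were 1.92, 2.28 and 2.61 (control), 2.36, 2.39 and 2.53 (CUMS), 1.88, 2.21 and 2.47 (OVX), and 2.23, 2.45 and 2.82 (OVX+CUMS). Without control replicate 5 the CUMS effect passed for both probes (0.25, adjusted p = 0.0476, and 0.22, adjusted p = 0.0466), and the first probe was higher in OVX+CUMS than in control mice (0.27, adjusted p = 0.0448), whereas with spike-in centring that difference was -0.04 for the first probe and -0.13 for the second. For both probes the OVX group had the lowest mean of the 4 groups. For the second probe, 4 of 6 OVX+CUMS mice lay above every OVX mouse and 2 of 6 OVX mice lay below every control mouse.

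Crh, the peptide gene itself, passed no test relative to the 75th percentile. Its values ran from 0.69 in an OVX+CUMS mouse to 1.62 in a control mouse, with group means of 1.25 ± 0.24 in control, 1.24 ± 0.14 in CUMS, 1.17 ± 0.12 in OVX and 1.09 ± 0.24 in OVX+CUMS mice (SD, n = 6 each). The ranges of the 4 groups overlapped. The CUMS effect on Crh was -0.04 with a 95% interval from -0.20 to 0.12, and the OVX effect was -0.12 with an interval from -0.27 to 0.04. With spike-in centring the OVX effect on Crh was -0.23 (adjusted p = 0.0292), and OVX+CUMS against control was -0.40 (adjusted p = 0.0044).

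On slide 2, where 4 CUMS and 4 OVX mice were measured together, 5 of the 11 member probes did not overlap between these groups, against 11% of all detected probes. OVX mice were higher for Crhbp (0.34), Tac1 (0.34) and Nts (0.49) and lower for the Crhr1 probes (-0.33 and -0.29), each with an exact two-sided permutation p of 0.0286. Any probe without overlap between 4 and 4 mice gives this p, so it only restates the lack of overlap. Both Crhr1 probes read the same transcript, so these 5 probes stand for 4 genes. This comparison contrasts ovariectomy without stress with stress without ovariectomy and does not separate the factors. The mean of the 2 OVX mice on slide 3 differed from that of the 4 on slide 2 by -0.23 for Crhbp and 0.21 for the first Crhr1 probe, within a single group.

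**Figure D2:**
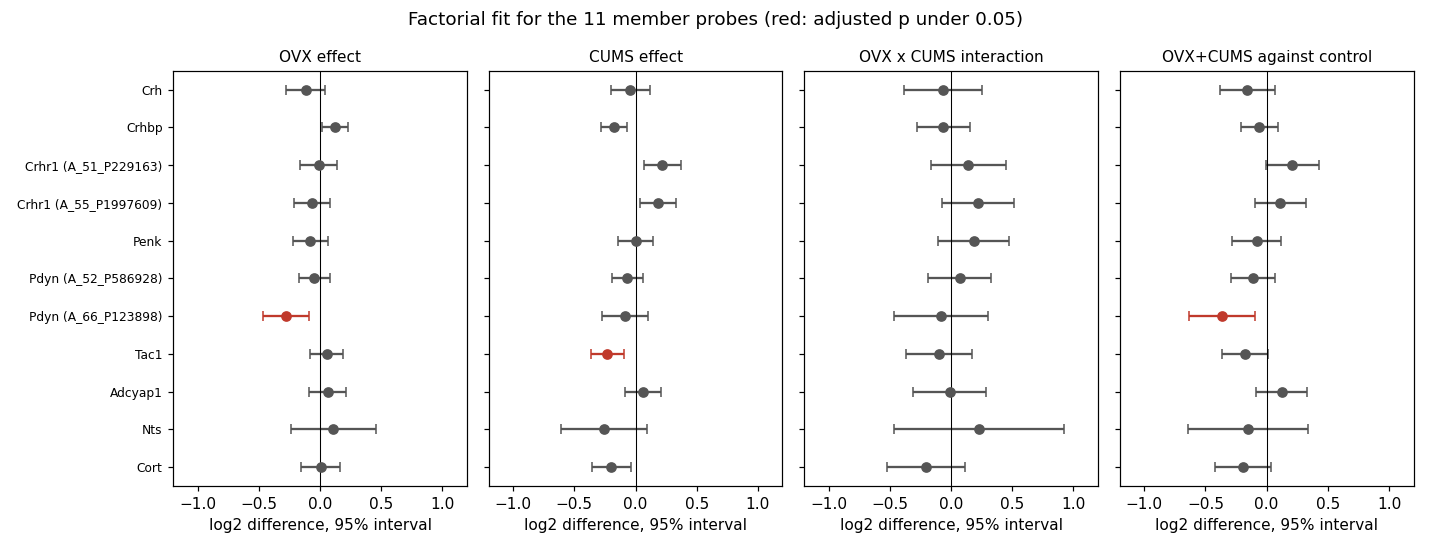
Log2 difference with its 95% interval (horizontal axis) for the 11 member probes (rows) in each of the 4 comparisons of the factorial fit; red marks an adjusted p under 0.05. Red marks Tac1 for CUMS (-0.23) and the dim Pdyn probe for OVX (-0.28) and for OVX+CUMS against control (-0.37), and the intervals of Nts are the widest.

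The opioid precursor genes are Penk, the source of enkephalins, and Pdyn, the source of dynorphins that act on the kappa receptor. The dim coding-region probe of Pdyn fell with OVX by 0.28 on the log2 scale (-0.28 ± 0.09, SE, n = 24; 1.21-fold) with an adjusted p of 0.0248 in limma. In sham mice the lowest, median and highest values were -3.47, -2.99 and -2.76 without stress (control), against -3.22, -3.11 and -2.90 with it (CUMS). In ovariectomised mice they were -3.70, -3.27 and -2.91 without stress (OVX), against -3.74, -3.45 and -2.97 with it (OVX+CUMS). Ovariectomised mice were lower in both stress states, but the ranges overlapped: the highest OVX mouse lay above 4 of 6 control mice and the highest OVX+CUMS mouse above 3 of 6. In OVX+CUMS against control mice the difference was -0.37 ± 0.13 (SE; 1.29-fold) with an adjusted p of 0.0344, and an exact two-sided permutation test of 6 against 6 gave p = 0.0346.

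The change of the bright Pdyn probe did not pass the test. Its OVX effect was -0.05 with a 95% interval from -0.17 to 0.08 (adjusted p = 0.614), and OVX+CUMS mice differed from control mice by -0.11 (adjusted p = 0.34). Over all 24 arrays the bright probe gave 6038 to 11043 signal units and the dim probe 44.6 to 93.8, so the call rests on a probe near the detection minimum of 50 units. The difference between the changes of the 2 Pdyn probes was not tested, and with spike-in centring both were lower in OVX+CUMS than in control mice (-0.61, adjusted p = 0.0034, and -0.36, adjusted p = 0.0115). The OVX call on the dim probe was lost with normexp background correction (-0.11, adjusted p = 0.113), quantile normalisation (adjusted p = 0.0716), no detection filter (adjusted p = 0.0558) and slide as a block (-0.33, adjusted p = 0.83). It held without any single array (adjusted p from 0.00793 to 0.0473), whereas the OVX+CUMS against control call was lost without any 1 of 8 arrays (control replicates 2, 4, 5 and 6 and OVX+CUMS replicates 3, 4, 5 and 6; adjusted p up to 0.0863). That call was also lost with normexp (-0.14, adjusted p = 0.166), quantile normalisation (adjusted p = 0.111), no detection filter (adjusted p = 0.0741), the replicate block (adjusted p = 0.0537) and slide as a block (adjusted p = 0.939). Within slide 2 the dim probe differed by -0.22 between OVX and CUMS mice (4 against 4, exact permutation p = 0.0857), within slide 3 by -0.10 between OVX+CUMS and OVX mice (exact permutation p = 0.75), and within slide 1 by -0.12 between CUMS and control mice (exact permutation p = 0.536).

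No comparison passed the test for Penk relative to the 75th percentile, and with spike-in centring OVX+CUMS against control was -0.33 (adjusted p = 0.0353). Control mice had a lowest, median and highest value of 2.91, 3.24 and 3.71, and CUMS mice of 3.04, 3.15 and 3.27. OVX mice had 2.96, 3.06 and 3.15, and OVX+CUMS mice had 2.93, 3.12 and 3.44. Control mice were the most spread (SD 0.28) and OVX mice the least (SD 0.06). The CUMS effect was -0.00014 with a 95% interval from -0.14 to 0.14, and the OVX effect was -0.08 with an interval from -0.22 to 0.06.

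Nts, the neurotensin gene, had the widest spread of the members. Control mice ranged from -3.02 to -1.15 around a median of -2.68, and CUMS mice from -3.23 to -2.47 around -2.94. OVX mice ranged from -2.88 to -2.31 around -2.43, and OVX+CUMS mice from -3.27 to -1.98 around -2.67. A single control mouse, replicate 1, lay far above the other control mice, the next of which was at -2.62. That mouse also had the highest Penk value of all 24 mice, 3.71, and its mean level of 11 oligodendrocyte markers was 0.72 above the average array, where the control median was -0.08. The next highest mouse for Nts and for Penk, OVX+CUMS replicate 1 (-1.98 and 3.44), had an oligodendrocyte mean of 0.51. Equally high oligodendrocyte means were found in OVX replicate 5 (0.72), with Nts at -2.33 and Penk at 3.07, and in OVX+CUMS replicate 3 (0.51), which had the lowest Nts value of all 24 mice, -3.27, and a Penk value below the control median. The part of these cells in the Nts and Penk values was not tested. The CUMS effect on Nts was -0.26 ± 0.17 (SE, adjusted p = 0.369), and the OVX effect was 0.11. Without that mouse the CUMS effect on Nts was -0.12, the OVX effect was 0.24 (adjusted p = 0.117), and OVX+CUMS against control changed from -0.15 to 0.12.

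Cort encodes cortistatin, a somatostatin-like peptide of cortical interneurons, and passed no test with all 24 arrays scaled to the 75th percentile. Control mice ranged from 3.62 to 4.33 around a median of 4.11, and CUMS mice from 3.86 to 4.11 around 3.95. OVX mice ranged from 4.01 to 4.46 around 4.12, and OVX+CUMS mice from 3.56 to 4.04 around 3.96. In OVX+CUMS mice 5 of 6 values lay below every OVX mouse. The CUMS effect on Cort was -0.20 ± 0.08 (SE) with an adjusted p of 0.126. With spike-in centring Cort passed for CUMS (-0.33, adjusted p = 0.0142) and for OVX+CUMS against control (-0.44, adjusted p = 0.0081), and without control replicate 1 it passed for OVX+CUMS against control (-0.28, adjusted p = 0.0352). Adcyap1, the gene of PACAP (a peptide that raises cyclic AMP through its receptors), ranged from 2.10 to 2.70 over all mice, and its 4 group means lay between 2.32 ± 0.21 and 2.45 ± 0.14 (SD, n = 6). Its CUMS and OVX effects were both 0.06 ± 0.07 (SE).

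The promoters of Tac1, Cort and Crhbp are shown because these 3 genes had a negative CUMS effect at an unadjusted p under 0.05 (0.00161, 0.0177 and 0.00222) and Cort correlated with both of the others between mice. Each window is the 250 bases before the start of the gene (RefSeq, GRCm38.p6), with the core of the cyclic AMP response element, TGACG or its reverse complement CGTCA, in capitals.
Tac1, chr6:7554811-7555060, plus strand: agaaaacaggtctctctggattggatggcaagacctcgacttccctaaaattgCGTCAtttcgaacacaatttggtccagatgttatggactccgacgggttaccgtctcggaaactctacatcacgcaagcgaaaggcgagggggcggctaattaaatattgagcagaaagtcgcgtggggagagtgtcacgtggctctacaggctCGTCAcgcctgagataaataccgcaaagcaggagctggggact
Cort, chr4:149126764-149127013, minus strand: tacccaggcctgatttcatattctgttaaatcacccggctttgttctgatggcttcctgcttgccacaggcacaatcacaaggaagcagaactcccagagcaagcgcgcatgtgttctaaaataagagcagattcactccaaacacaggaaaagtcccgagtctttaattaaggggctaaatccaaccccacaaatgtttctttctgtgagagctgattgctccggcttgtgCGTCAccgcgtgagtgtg
Crhbp, chr13:95444832-95445081, minus strand: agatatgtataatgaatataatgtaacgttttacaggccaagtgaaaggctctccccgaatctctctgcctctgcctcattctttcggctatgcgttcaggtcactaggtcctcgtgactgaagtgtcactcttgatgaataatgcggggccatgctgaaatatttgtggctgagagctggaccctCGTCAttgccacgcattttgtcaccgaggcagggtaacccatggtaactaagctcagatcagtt
The core begins 197 and 43 bases before the start of Tac1, 18 bases before that of Cort and 64 bases before that of Crhbp. The promoter table held windows for 7 of the 9 genes, not for Crh and Penk, and 5 of these 7 genes (Tac1, Cort, Crhbp, Adcyap1 and Nts) had the core within 250 bases. Counted by window, since some genes have more than 1, the core was in 6 of the members' 9 windows and in 17.8% of all 32851 promoter windows. The Adcyap1 windows overlap and hold the same core site, so this site is counted more than once. The full palindrome TGACGTCA, which contains the core on both strands, was in 0 of the 9 and in 1.55% of all windows. The matches describe letters in these windows and not binding.

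Between mice, several members rose and fell together after the group means were taken off. Of 36 gene pairs (1 probe per gene, the brightest), 5 correlated at an adjusted p under 0.05 over 24 arrays (Pearson's r, two-sided permutation within groups, Benjamini-Hochberg over the 36 pairs), and 9 had an unadjusted p under 0.05. Cort and Crhbp had the highest correlation, with r = 0.74 (permutation p = 0.00026, adjusted p = 0.00936) and Spearman's rho = 0.75 (permutation p = 0.00029, adjusted p = 0.0104). It was 0.72 without the 2 arrays farthest from the median of Crhbp, and it was positive within each slide (0.81, 0.44 and 0.81). Cort and Crhr1 were opposed, with r = -0.67 (permutation p = 0.00261, adjusted p = 0.0342), rho = -0.62 (permutation p = 0.00613, adjusted p = 0.0736), -0.59 without the 2 farthest arrays, and -0.75, -0.85 and -0.43 within the slides. Since every value is scaled to its own array, the points of a pair share that array's scaling, RNA and dissection.

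The other pairs rested more on single mice. The Tac1 and Cort pair had r = 0.66 (permutation p = 0.00285, adjusted p = 0.0342) and rho = 0.64 (permutation p = 0.00516, adjusted p = 0.0736), but r was 0.19 within slide 2 and 0.53 without the 2 farthest arrays. Crhbp and Pdyn had r = 0.60 (permutation p = 0.00605, adjusted p = 0.0436) and rho = 0.49 (permutation p = 0.0256, adjusted p = 0.154), with 0.53 without the 2 farthest arrays and 0.67, 0.09 and 0.75 within the slides. Penk and Nts had r = 0.72 (permutation p = 0.00575, adjusted p = 0.0436) and rho = 0.42 (permutation p = 0.0519, adjusted p = 0.187). The relation of Penk and Nts did not hold without the 2 arrays farthest from the median of Penk (r = 0.42) and was negative within slide 2 (-0.20). Without control replicate 1 alone it had r = 0.45 and an adjusted p of 0.213, and 2 of the 36 pairs (Cort with Crhbp and Cort with Crhr1) remained past the threshold.

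**Figure D3:**
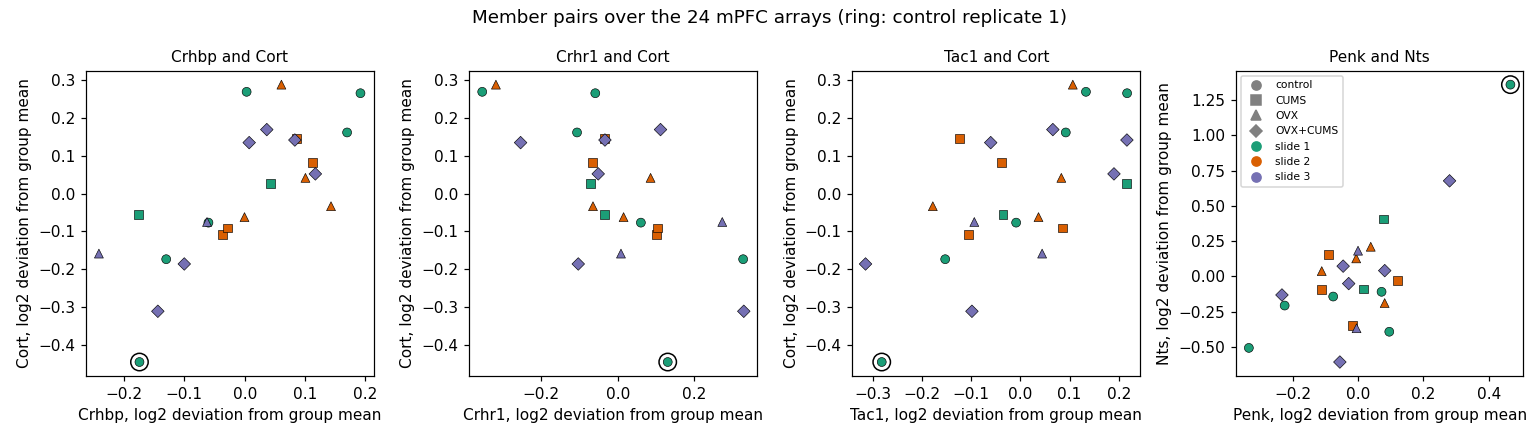
Deviation from the group mean in log2 units for 4 pairs of member genes, Crhbp, Crhr1, Tac1 (each against Cort) and Penk against Nts; each point is 1 of 24 mice, with the group given by its shape and the slide by its colour, and control replicate 1 ringed. The Cort pairs follow a slope across all slides for Crhbp (r = 0.74) and Crhr1 (r = -0.67), whereas the Penk and Nts pair (r = 0.72) is drawn out by the ringed mouse.

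**Figure D4:**
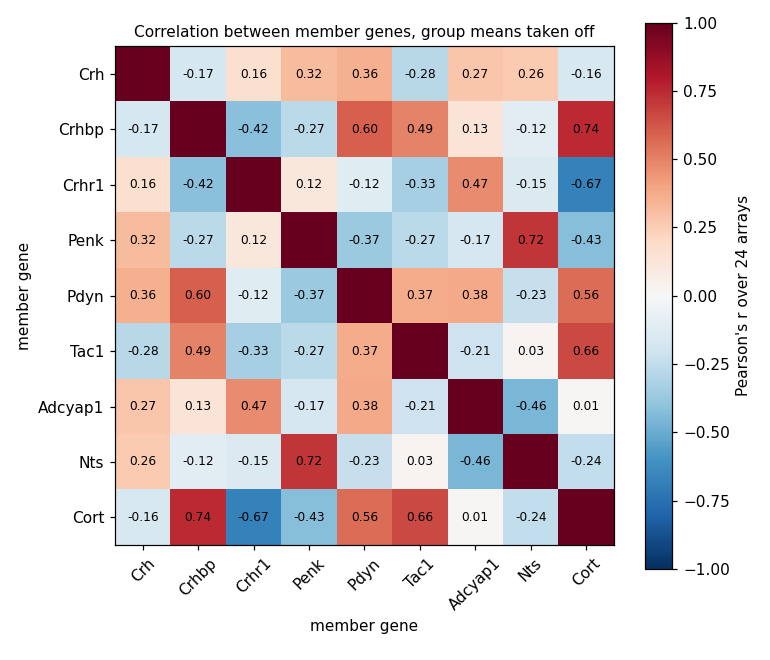
Pearson's r between the 9 member genes over the 24 mPFC arrays after the group means were taken off; colour and numbers give r, from -1 (blue) to 1 (red). Cort has the strongest positive entry with Crhbp (0.74) and the strongest negative entry with Crhr1 (-0.67).

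Over the same 24 arrays the genes most like each member were found among the 13984 other genes with a detected probe by Pearson's r with the group means taken off. They were Cdh6 (0.91), P2rx5 and Cntnap4 for Tac1, Ecel1 (0.89), Pcdh17 and Ahi1 for Cort, and Thop1 (0.85), Slc4a8 and Psmd1 for Crhbp. For Crhr1 they were Cdk10 (0.81), Prxl2b and Dkkl1, for Crh Ptgs2 (0.82), Dlx6os1 and Nfil3, and for Adcyap1 Rasgef1c (0.75), Arnt2 and Nlgn2. For Pdyn they were Kcnab1 (0.79), Noct and Ap3s1, for Penk Strip2 (0.79), Igfn1 and Myh2, and for Nts Gad1 (0.83), Irgm1 and Pcdhb3. Spearman's rho was lower for the last 2 members, at 0.63, 0.59 and 0.60 for Penk and 0.77, 0.73 and 0.62 for Nts. All of these genes are the highest of 13984, and their correlations were not tested. Gad1 encodes a GABA-synthesising enzyme.

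Among the receptors of the member peptides other than Crhr1, 18 of 19 listed genes were detected. Relative to the array's 75th percentile, 3 of 18 rose with OVX (Vipr2 by 0.68 ± 0.23, Oprl1 by 0.27 ± 0.08 and Sstr1 by 0.24 ± 0.06, SE) and 1 fell (Sstr5, -0.35 ± 0.07), which is 22.2% called beside 30.9% of all detected probes. The Vipr2 probe had a mean signal of 59.9 units, near the detection minimum of 50. With slide as a block no detected probe was called for any effect, so none of the calls on listed genes held there. Vipr2 is a receptor that also binds PACAP, Oprl1 is the nociceptin receptor, and Sstr1 and Sstr5 are somatostatin receptors to which cortistatin binds. With CUMS none of the 18 passed the test in limma, beside 4.2% of all detected probes, and the median change of the list was -0.0066. The kappa receptor Oprk1 had a CUMS effect of 0.03 ± 0.10 (SE), and the neurotensin receptor Ntsr1 had a CUMS effect of -0.30 ± 0.12 (SE, adjusted p = 0.139). In the interaction only Sstr4 of the 18 passed (5.56% beside 4.47%), at 0.47 ± 0.11 (SE, adjusted p = 0.0338): its OVX difference was -0.26 without stress and 0.22 with it. The Sstr4 call did not hold with spike-in centring, where 0 detected probes passed the interaction.

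Of the 15 genes for peptide processing and dense core vesicles, all detected, 5 rose and 2 fell with OVX (46.7% called beside 30.9%), while the list's median was 0.08 beside 0.04 over all detected probes. Pcsk1n, the precursor of an inhibitor of the convertase PC1, rose by 0.23 ± 0.03 and Pcsk2, a convertase that cleaves prodynorphin and proenkephalin, rose by 0.19 ± 0.03, as did the protease gene Ctsl (0.12 ± 0.04). Furin (-0.23 ± 0.04) and Vgf (-0.14 ± 0.05) fell (all SE). Pcsk2 was the 1 gene of the list that passed for CUMS (6.67% beside 4.2%), at 0.15 ± 0.03 (SE, adjusted p = 0.0125).

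Other neuropeptide ligands were detected for 20 of 31 genes. With OVX, Pomc (0.23 ± 0.06) and Nmb (0.15 ± 0.05) rose, and Npff (-0.42 ± 0.10), Gal (-0.24 ± 0.05) and Npb (-0.23 ± 0.05) fell (SE), 25% of the list beside 30.9%. Npff and Gal, the precursor genes of neuropeptide FF and galanin, also passed the interaction (0.74 ± 0.19 and 0.37 ± 0.10, SE, adjusted p = 0.0386 for each), 10% of the list beside 4.47%. Neither call held with spike-in centring, which kept 0 of the 1266 interaction calls over all detected probes. Without the detection filter 1 of the 1266 was kept. The OVX difference of Npff was -0.79 without stress and -0.05 with it, and that of Gal was -0.43 and -0.06 (SE 0.136 for Npff and 0.0674 for Gal). With CUMS, Cck rose by 0.12 ± 0.03 (SE, adjusted p = 0.0329) and no other of the 20 passed (5% beside 4.2%). Sst, the peptide gene most related to Cort, had a CUMS effect of -0.13 ± 0.04 (SE) with an adjusted p of 0.0741. The list's median CUMS change was -0.07, as for the members, beside 0.01 over all detected probes.

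The tissue label was checked against markers, and 18 of 18 excitatory cortical and 19 of 20 GABAergic interneuron markers were detected. Of 17 listed markers of septum, hypothalamus and basal forebrain, 11 were detected. With OVX 3 of these 11 passed (27.3% beside 30.9%): Chat (-0.68 ± 0.22, SE) and Gal fell, and Pomc rose. In OVX+CUMS against control mice 3 of them passed, and all fell: Chat (-1.12 ± 0.32, SE), Gal and Hcrt. This is 27.3%, beside 33.4% of all detected probes in either direction and 13% lower. Of 6 olfactory markers 2 were detected, and their mean reached 0.82 in OVX replicate 2. With OVX 6 of the 19 interneuron markers rose and 0 fell (31.6% called, beside 30.9% in either direction). Of all 28353 detected probes, 5423 rose with OVX. With CUMS none of the 19 passed in limma, beside 4.2% of all detected probes, and their median change was -0.04. The interneuron list's mean level relative to the average array ran from -0.06 to 0.03 in control and -0.09 to 0.03 in CUMS mice. It ran from 0.005 to 0.13 in OVX and -0.06 to 0.03 in OVX+CUMS mice. Of 13 detected striatal markers, 0 passed with CUMS, beside 4.2% of all detected probes. With OVX 1 of them rose (Drd2, 0.38 ± 0.12, SE), which is 7.69% beside 30.9% in either direction. Drd2 had a mean signal of 41.3 units, near the detection minimum of 50. The mean level of the striatal list ran from -0.16 to 0.05 in control and -0.07 to -0.004 in CUMS mice. It ran from -0.02 to 0.21 in OVX and -0.12 to 0.12 in OVX+CUMS mice. Of 17 detected activity-regulated genes, 3 rose with CUMS (Arc by 0.88 ± 0.18, Nr4a1 by 0.51 ± 0.12 and Per1 by 0.33 ± 0.07, SE). This is 17.6%, beside 4.2% of all detected probes in either direction. Marker lists of other cells also moved between mice: the oligodendrocyte list ran from -0.46 to 0.72 and the blood cell list from -0.64 to 1.50 (the highest in OVX+CUMS replicate 5). Among microglial markers 8 of 11 rose with OVX (72.7% beside 30.9% in either direction). The part of these cells and regions in the results above was not tested.

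In blood cells, fewer member probes were above background. Adcyap1, Cort and the first Crhr1 probe were well above background on 24 of 24 blood arrays, the bright Pdyn probe on 20, Penk on 14, the dim Pdyn probe on 1, and the probes for Crh, Crhbp, Tac1, Nts and the second Crhr1 probe on 0. The first Crhr1 probe gave 350 to 571 signal units in blood while the second, on the same transcript, gave 1.82 to 11.6. The Crhr1 probes thus disagreed in blood. Signal units are not scaled between tissues, and the 75th percentile of blood arrays was lower, at 54.9 to 192.

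**Figure D5:**
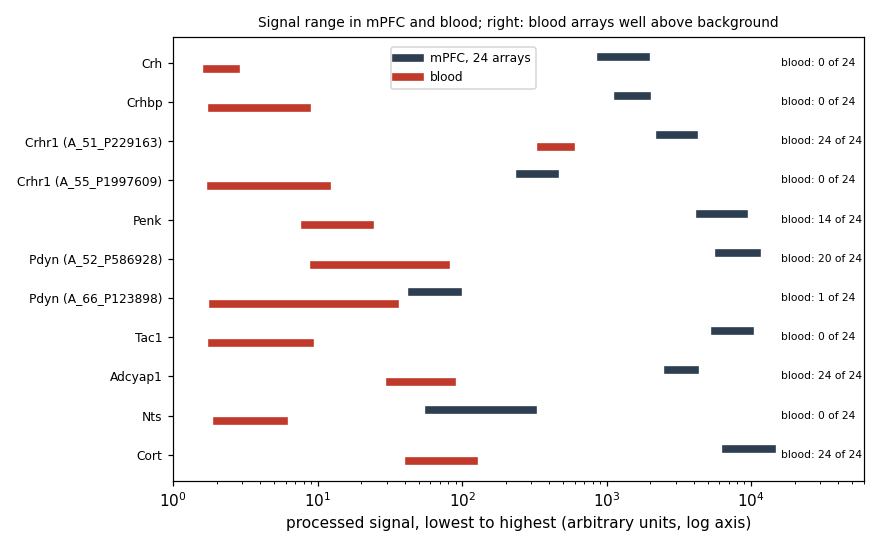
Lowest to highest processed signal (horizontal axis, arbitrary units, log axis) of each member probe on the 24 mPFC and the 24 blood arrays, with the number of blood arrays on which the probe was well above background at the right. The first Crhr1 probe reaches 350 to 571 units in blood and the second stays at or below 11.6.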

How the data were processed

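The 48 arrays (24 mPFC, 24 blood) were 1-colour Agilent mouse arrays with probes of 60 bases. The authors deposited the scanner output of Feature Extraction (version 10.7.3.1), and the processed signal intensity per spot was used here. The authors' normalised log2 values in the series table matched these, up to 1 constant per array, for 100% of 28059 detected probes with 1 spot (tolerance 0.001). After a log2 transform, each array was centred on its own 75th percentile. A probe was detected if it was positive, significant and well above background without an outlier mark on all 24 mPFC arrays and above 50 units on at least 2. Names of 26762 of 28390 probes with a RefSeq identifier were updated through RefSeq.

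The 4 groups (n = 6 mice) were fitted with limma 3.58.1 in R 4.3.3, as the factorial equivalent of the study's 2-way test. The fit was tested on simulated data. Permutation tests within groups used 100000 resamples. Replicates are separate mice, and precision is limited by their number. For gene lists the brightest detected probe per gene was used. Named genes from other lists are at most 3 per list, direction and effect, ranked by size among those past the threshold, besides a few members' receptors and Sst, which were picked after seeing their values. The members and all gene lists were chosen with earlier results of these data known. Replicate numbers were not treated as pairs of mice in the main fit.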

Additional observations from a re-analysis of the deposited data

Results flagged for a closer look

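Among 44 groups of 6 mice (11 probes, 4 groups), 2 held a mouse whose gap to its nearest neighbour as a share of the group's range exceeded Dixon's 95% critical value, and about 1 in 20 groups does so by chance (here 4.55%). In control mice, replicate 1 had an Nts value of -1.15 against -2.62 in the next mouse, a gap of 0.787 of the range. In CUMS mice, replicate 6 had a value of -0.997 for the Crhr1 probe A_55_P1997609 against -0.83 in the next mouse, a gap of 0.648 of the range.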

How the results depend on the processing

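The count of called member probes for OVX, CUMS and OVX+CUMS against control was 1 each, and it moved under most settings. For OVX it became 0 with normexp, quantile normalisation, no detection filter and slide as a block, and 2 with the E1A spike-in shift. For CUMS it became 2 with normexp, quantile normalisation and the percentile over detected probes, 3 with the spike-in shift, and 0 with no detection filter, no moderation and slide as a block. For OVX+CUMS against control it became 0 with quantile normalisation, no detection filter, slide as a block and the replicate block, and 7 with the spike-in shift, while the count of 1 with normexp was Tac1 (-0.22, adjusted p = 0.0497) in place of the dim Pdyn probe. Leaving out 1 mouse gave 1 to 2 for OVX (2 without control replicate 4 or OVX replicate 5), 0 to 4 for CUMS (4 without control replicate 5) and 0 to 2 for OVX+CUMS against control (2 without control replicate 1). With slide as a block 0 member probes had an unadjusted p under 0.05 for any effect in limma.

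Over all detected probes the OVX count was 5216 with the spike-in shift, and slide as a block gave 0 (1879 at an unadjusted p under 0.05). The CUMS count, 1191, was 6041 with the spike-in shift, 25 with no detection filter and 0 with slide as a block (2083 unadjusted), and ranged from 231 without CUMS replicate 6 to 3327 without CUMS replicate 2. The interaction count, 1266, was 0 with the spike-in shift, 1 with no detection filter, 716 with no moderation, 615 with the replicate block and 0 with slide as a block (649 unadjusted), and ranged from 1 (the value without any 1 of 12 mice) to 3853 without CUMS replicate 1. The OVX+CUMS against control count, 9479, was 0 with slide as a block (1677 unadjusted). The number of correlated pairs, 5, was 8 with the group means kept and 2 without control replicate 1, a setting chosen after seeing the data. The causes were not tested.

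Effects that changed sign all had an adjusted p over 0.05 before and after. With normexp Penk was 0.023 for OVX, 0.046 for CUMS and 0.068 for OVX+CUMS against control, and with the authors' normalised values it was 0.0010 for CUMS. The Cort OVX effect was -0.032 with quantile normalisation and -0.026 with the percentile over detected probes, and the Adcyap1 interaction was 0.014 and 0.013. With the spike-in shift the OVX effects were -0.053 for Adcyap1, -0.11 for Cort, -0.0082 for Nts and -0.060 for Tac1, the Adcyap1 CUMS effect was -0.069, and OVX+CUMS against control was -0.12 for Adcyap1 and -0.036 and -0.13 for the Crhr1 probes. With slide as a block OVX was -0.027 for Adcyap1 and 0.078 for the bright Pdyn probe, CUMS was 0.025 for Penk, and the interaction was 0.0099 for Adcyap1, 0.16 for Crhbp and 0.025 for the dim Pdyn probe. There OVX+CUMS against control was -0.011 for Adcyap1, 0.069 for Crhbp, -0.081 and -0.0039 for the Crhr1 probes, 0.23 for Nts and 0.072 for the bright Pdyn probe. Leaving out 1 mouse, OVX ranged from -0.039 to 0.036 for Cort and -0.046 to 0.022 for the first Crhr1 probe, and CUMS from -0.034 to 0.046 for Penk. The interaction then ranged from -0.076 to 0.049 for Adcyap1, -0.14 to 0.011 for Crh, -0.043 to 0.35 for Nts and -0.17 to 0.0031 for the dim Pdyn probe, and OVX+CUMS against control from -0.29 to 0.12 for Nts and -0.15 to 0.012 for Penk.

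Whether the replicate numbers pair the mice cannot be settled from these values. Over 36 pairs of the same number the correlation of deviations ran from -0.23 to 0.391. Its mean was 0.0624, against -0.0116 for pairs of other numbers, and 7 of 24 mice correlated best with their own number. With the replicate block 1 member call was lost, that of the dim Pdyn probe in OVX+CUMS against control mice (-0.37, adjusted p = 0.0537). All 11 member probes stayed detected under each detection rule tried. The signal over background limits the dim Pdyn probe, and 6 mice per group on 3 slides limit every comparison.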
